A study of Rattus norvegicus with 12 samples.

Results

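The genes described here are 6 rat genes of antibody binding and its signalling: the IgG receptors Fcgr1a, Fcgr2a and Fcgr2b, the signalling adapters Fcer1g and Tyrobp, and the IgG transport receptor Fcgrt. They were found as every gene probe whose accession matched 1 of these 6 symbols, which gave 9 of the 30367 probes on the array. Fcgr1a, Fcgr2b and Fcer1g had 2 probes each, and the other genes had 1 each. All 9 probes were well above background on all 12 arrays by the scanner's own flag, none of their spots was saturated, and no member was lost to the filter on dim probes.

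Fc receptors bind the constant part of antibodies and so let a cell that makes no antibody respond to one. The activating receptors pass their signal through an immunoreceptor tyrosine-based activation motif, which for several of them lies in the shared gamma chain made from Fcer1g, and the kinase Syk binds that motif once it is phosphorylated. The inhibitory receptor Fcgr2b carries the opposing motif and recruits the lipid phosphatase encoded by Inpp5d. Tyrobp encodes DAP12, an adapter of the same design that serves Trem2 and other receptors of macrophages and microglia. Fcgrt encodes the large chain of the neonatal Fc receptor, which pairs with beta-2-microglobulin and returns IgG and albumin from endosomes to the blood. In sensory ganglia these genes are known mainly from the macrophages that lie around nerve cell bodies, and in the rat the high-affinity receptor Fcgr1a has also been described on sensory neurons.

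RNA came from L6 dorsal root ganglia, which hold the cell bodies of sensory neurons of that spinal segment, in male Fischer 344 rats, and was labelled with Cy3 for 12 one-colour arrays. Rats of the group old_CR were aged 25 to 28 months and, from 6 weeks of age, ate on 3 days of each week, a caloric restriction of 40%. Those of old_AL had the same age with free access to food, and those of young_AL were aged 6 months, also with free access (ad libitum). Each group had 4 arrays, numbered here by the replicate in the source names. The labels record neither the hour of collection nor the time since the last meal, and no rat of the young age was calorie-restricted.

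The array old_AL 1 stood apart from the other 11. The 75th percentile of its signal was 7662, against 2634 to 3110 on the others, the share of spots well above background was 71.5%, against 78.8% to 84.1%, and 4026 of its spots were flagged as uneven, against 1 to 208. Tests were therefore made on 11 arrays, 3 of them old_AL, and the differences of the members from old_AL are also given on all 12. The array old_AL 4 also stood apart, among dim spots: the 25th percentile of its signal was 79.7, against 37.7 to 44.6 on the other 10 tested arrays, and it correlated with the rest at a median of 0.971, the lowest of the 11. All 4 young_AL arrays lay on 1 slide and both old groups on the other slide, in separate rows, so that age and slide cannot be told apart, nor can diet and row. All 14 measured markers of sensory neurons and 11 of 12 of satellite glia and Schwann cells were well above background on each of the 11 arrays. On these 11 arrays the summed neuron markers ranged from 64184% to 68030% of an array's 75th percentile in old_CR, 67202% to 70695% in old_AL and 67441% to 71231% in young_AL.

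Levels are given below as a percent of the array's own 75th percentile of signal, and differences as log2, first group minus second, with the standard error of the limma fit. Each adjusted p is from limma with Benjamini-Hochberg adjustment over all 23623 probes tested, and 0.05 was the threshold. A level is a property of its probe and was not compared between probes of different genes.

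In old ad libitum rats against young ones, 3 of the 9 probes were higher past the threshold and none was lower: the 10-spot probe of the inhibitory receptor Fcgr2b by 2.52-fold (95% interval 1.70 to 3.73), Tyrobp by 1.79-fold (1.34 to 2.40) and Fcgr2a by 1.18-fold (1.10 to 1.27). Of all probes tested, 1.57% were higher by the same rule. On 8 of the 9 probes every old_AL array lay above every young_AL array, which held for 11.8% of all probes, the exception being Fcgrt. The median difference over the 9 probes was 0.72, against 0.04 over all probes tested, and on all 12 arrays it was 0.30, against -0.07. In bulk RNA such as this, more cells of a type and more RNA per cell cannot be told apart.

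In calorie-restricted old rats against ad libitum old rats, 1 of the 9 probes passed the threshold, Fcgr2a, which was lower at 0.81 of the old_AL level (95% interval 0.76 to 0.87). By that rule 0.698% of all probes were lower. Both Fcgr1a probes, the Fcgr2a probe and the 1-spot Fcgr2b probe were lower on every old_CR array than on every old_AL array, and 15.3% of all probes were. The median difference of the 9 probes was -0.49, against -0.06 over all probes, and on all 12 arrays it was -0.29, against 0.05. The old_CR and old_AL arrays are also each part of a second comparison, so the differences of the 3 comparisons are not independent.

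Calorie-restricted old rats against young ad libitum rats differed past the threshold at 1 of the 9 probes, the 10-spot probe of Fcgr2b, which was 2.50-fold higher (95% interval 1.73 to 3.60). Of all probes, 0.724% were higher by that rule. No other member probe separated these groups, and 5.41% of all probes did so upward. The median difference of the members was 0.18, against -0.02 over all probes.

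**Figure D1:**
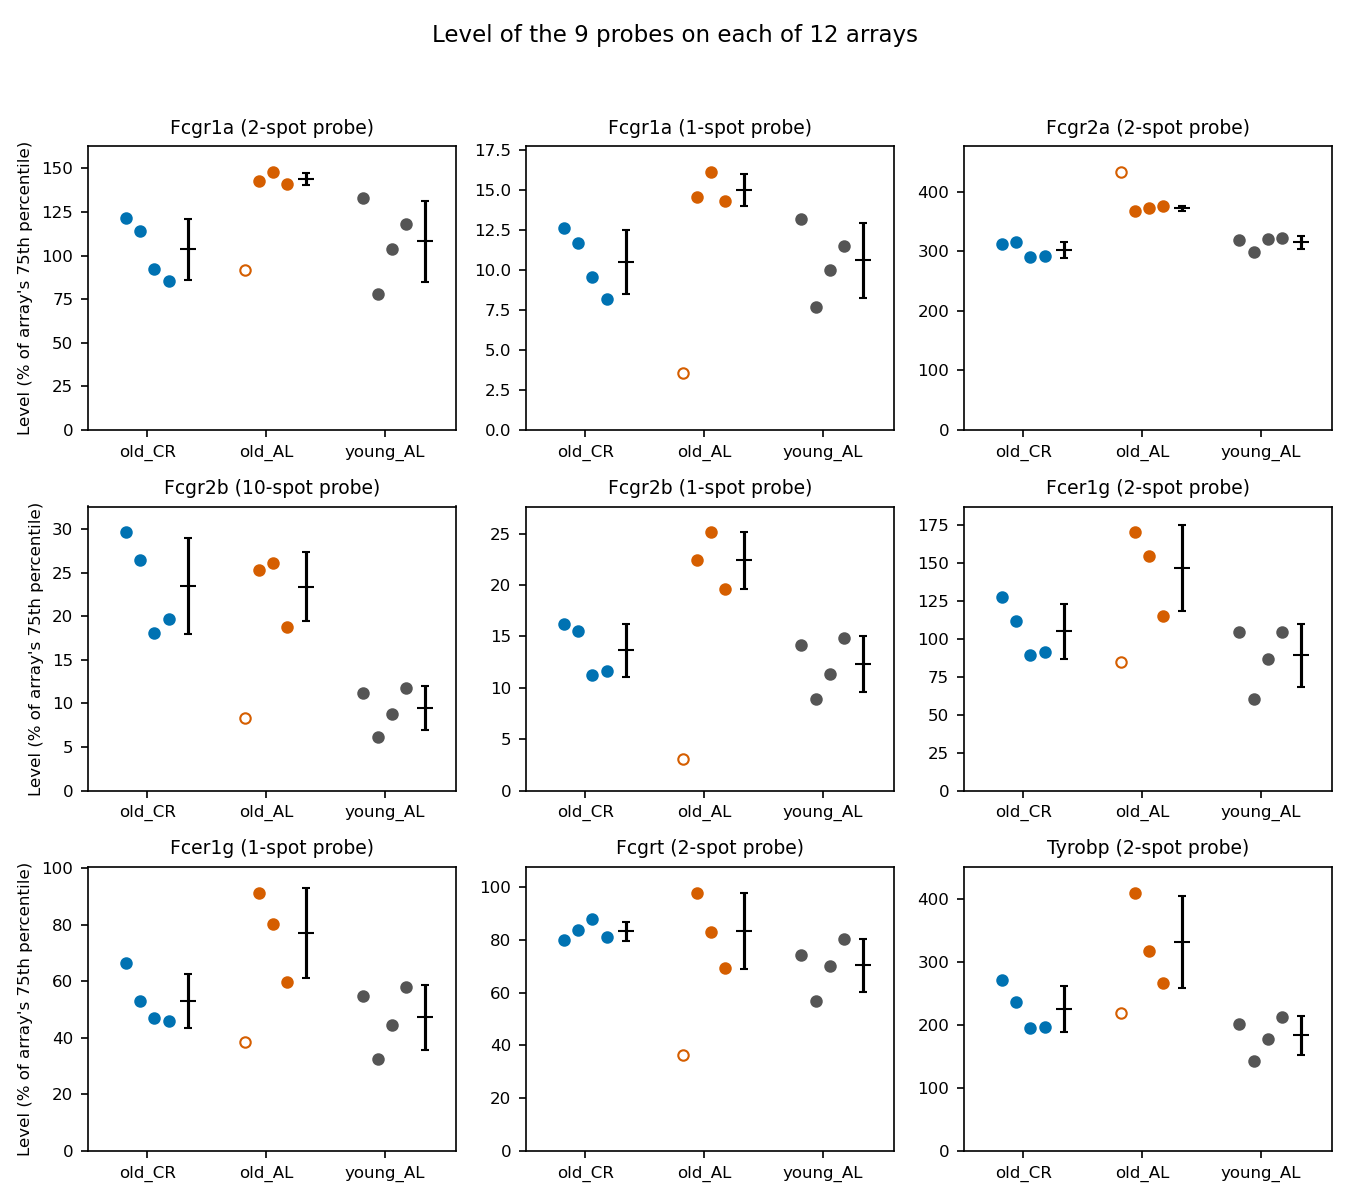
Level of each of the 9 probes on each of the 12 arrays, as a percent of the array's 75th percentile of signal (vertical axes start at 0), with old_CR, old_AL and young_AL from left to right. Filled points are arrays, the open point is old_AL 1, and the bar beside each group is its mean and SD without old_AL 1; in 8 of 9 panels the 3 filled old_AL points lie above all 4 young_AL points.

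Fcgr1a encodes the high-affinity receptor for single IgG molecules, which signals through the Fcer1g chain. Its 2-spot probe A_43_P15904 read 122%, 114%, 92.5% and 85.4% on the 4 old_CR arrays, 143%, 148% and 141% on old_AL 2 to 4, and 133%, 77.9%, 104% and 118% on the young_AL arrays. The 3 old_AL values were close together and above every other value, while old_CR and young_AL covered much the same range. The difference of old_AL from young_AL was 0.44 ± 0.18 (SE), with an adjusted p of 0.191 by limma (n = 3 and 4). That of old_CR from old_AL was -0.49 ± 0.18, with an adjusted p of 0.137 by limma (n = 4 and 3). Neither passed the threshold.

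The 1-spot probe of Fcgr1a, A_64_P129279, was far dimmer and gave the same order. It read 12.7%, 11.7%, 9.59% and 8.22% in old_CR, 14.6%, 16.2% and 14.4% in old_AL, and 13.2%, 7.73%, 10.001% and 11.5% in young_AL. Its differences were 0.53 ± 0.19 for old_AL against young_AL and -0.53 ± 0.19 for old_CR against old_AL, with adjusted p of 0.153 and 0.134 by limma. On the array left out, old_AL 1, the 2-spot probe read 91.8% and the 1-spot probe 3.56%, so that with 12 arrays the differences of old_AL from young_AL became 0.28 ± 0.21 and 0.01 ± 0.43, and those of old_CR from old_AL -0.33 ± 0.21 and -0.01 ± 0.43. The old_CR and young_AL means of the 2-spot probe were 104% ± 17.3 and 108% ± 23.4 (SD, n = 4 each), and the 95% interval of their log2 difference ran from -0.42 to 0.32.

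Fcgr2a bears the name of a low-affinity activating receptor of humans, one of the receptors that bind IgG in complexes. Its probe A_64_P011156 read 312%, 315%, 291% and 291% in old_CR, 368%, 372% and 376% in old_AL, and 319%, 298%, 320.5% and 322% in young_AL. The spread within each group was small beside the gap, and the old_AL arrays lay above both other groups with no overlap. Means were 302% ± 13.0 in old_CR (SD, n = 4), 372% ± 4.10 in old_AL (n = 3) and 315% ± 11.1 in young_AL (n = 4).

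Fcgr2a rose by 0.24 ± 0.04 in old_AL against young_AL, with an adjusted p of 0.0312 by limma. In old_CR against old_AL it fell by 0.30 ± 0.04, with an adjusted p of 0.0305 by limma. The difference of old_CR from young_AL was -0.06 ± 0.04 and its 95% interval ran from -0.15 to 0.03. On old_AL 1 the level was 433%, so that both separations also held on all 12 arrays, at 0.30 ± 0.08 and -0.36 ± 0.08, but with adjusted p of 0.530 and 0.631 by limma. Both calls also ended when each array was centred on its median in place of its 75th percentile, at 0.08 with an adjusted p of 0.363 and -0.13 with an adjusted p of 0.160 by limma. That centring moved the median over all probes to -0.12 in old_AL against young_AL and 0.11 in old_CR against old_AL. Relative to the median of all probes, the Fcgr2a difference was 0.21 in old_AL against young_AL and -0.24 in old_CR against old_AL under both scalings. That match follows from arithmetic, because each scaling shifts all probes of an array alike, and it is no support for the calls.

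The starts of Fcgr2a and Fcgrt are shown because RefSeq promoter windows (build GRCr8, 250 bases before to 50 after the start, gene strand) were at hand for these 2 of the 6 genes. Fcgr2a passed in both the age and the diet comparison, and Fcgrt in none. Fcgr2a is at chr13:85828636-85828935 on the minus strand and Fcgrt at chr1:104719977-104720276 on the minus strand. Capitals mark GAGGAA, the core letters bound by PU.1, a transcription factor of macrophages and other blood cells, searched on both strands.
Fcgr2a: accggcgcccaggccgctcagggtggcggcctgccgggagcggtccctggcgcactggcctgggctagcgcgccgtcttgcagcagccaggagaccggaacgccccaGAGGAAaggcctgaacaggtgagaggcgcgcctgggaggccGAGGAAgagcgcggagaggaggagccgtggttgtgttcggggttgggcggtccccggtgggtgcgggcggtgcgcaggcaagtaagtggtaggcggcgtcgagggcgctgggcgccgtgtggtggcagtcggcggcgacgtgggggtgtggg
Fcgrt: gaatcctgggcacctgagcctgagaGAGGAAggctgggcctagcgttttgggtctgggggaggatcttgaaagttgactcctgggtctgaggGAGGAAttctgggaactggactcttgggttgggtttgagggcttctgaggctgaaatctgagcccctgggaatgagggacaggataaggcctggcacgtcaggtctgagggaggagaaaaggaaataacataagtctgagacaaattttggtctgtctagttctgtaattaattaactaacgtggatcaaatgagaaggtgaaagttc
Each window held 2 matches, starting 143 and 102 bases before the start in Fcgr2a and 225 and 158 bases before it in Fcgrt. Of all 33465 windows of the same length, 27.6% held at least 1, and a second annotated start of Fcgr2a held none. The match is of letters only, and the array coordinates, tagged rn4, were not used.

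Fcgr2b encodes the inhibitory low-affinity receptor, the member that restrains the others. Its probes both carry the accession NM_175756 and gave different accounts of the diet. The probe A_42_P735417, spotted 10 times on each array, read 29.6%, 26.4%, 18.1% and 19.7% in old_CR, 25.3%, 26.1% and 18.8% in old_AL, and 11.2%, 6.18%, 8.77% and 11.8% in young_AL. Both old groups lay above young_AL with no overlap, and the old groups overlapped each other.

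By this 10-spot probe Fcgr2b rose by 1.33 ± 0.25 in old_AL against young_AL, with an adjusted p of 0.0352 by limma, and by 1.32 ± 0.23 in old_CR against young_AL, with an adjusted p of 0.0277 by limma. The difference of old_CR from old_AL was -0.01 ± 0.25, with a 95% interval of -0.58 to 0.56. Within an array the spots kept had a coefficient of variation of 2.65% to 6.92% on the 11 arrays, and 13.9% on old_AL 1. On old_AL 2 an outlier spot was set to missing, which left 9. The mean signal there was 677 without that spot and 815 with it. On all 12 arrays old_AL 1 read 8.35%, inside the young_AL range, and the difference of old_AL from young_AL was 0.96 ± 0.36 with an adjusted p of 0.579 by limma, and that of old_CR from old_AL was 0.36 ± 0.36. With 12 arrays the old_CR arrays still lay above all young_AL arrays, at the same difference and an adjusted p of 0.825 by limma.

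The 1-spot probe of Fcgr2b, A_64_P071973, read 16.2%, 15.5%, 11.3% and 11.6% in old_CR, 22.4%, 25.1% and 19.6% in old_AL, and 14.1%, 8.94%, 11.3% and 14.8% in young_AL. By this probe old_AL stood alone above both other groups, and old_CR overlapped young_AL. Its differences were 0.88 ± 0.20 for old_AL against young_AL (adjusted p = 0.0523 by limma), -0.72 ± 0.20 for old_CR against old_AL (adjusted p = 0.0823) and 0.16 ± 0.18 for old_CR against young_AL (adjusted p = 0.705). None passed the threshold. On old_AL 1 this probe read 3.09%, below the other 11 arrays. With it included old_AL overlapped both other groups, at 0.17 ± 0.57 for old_AL against young_AL and -0.01 ± 0.57 for old_CR against old_AL.

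The ratio of both probes within an array needs no scaling between arrays, and it separated the 3 groups. The log2 ratio of the 10-spot over the 1-spot probe was 0.87, 0.77, 0.68 and 0.76 in old_CR, 0.17, 0.06 and -0.06 in old_AL, and -0.33, -0.53, -0.37 and -0.33 in young_AL, with no overlap between any groups. The difference was 0.45 for old_AL against young_AL, 0.71 for old_CR against old_AL and 1.16 for old_CR against young_AL. That these probes disagree was known when the genes were chosen, so these values are a description and no test is given for them.

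On old_AL 1 the Fcgr2b ratio was 1.43, above all other arrays. With it included the differences were 0.79 for old_AL against young_AL and 0.37 for old_CR against old_AL. The within-array ratios of the paired probes of Fcgr1a and of Fcer1g differed between groups by -0.09 to 0.07 on 11 arrays, with adjusted exact permutation p from 0.343 to 0.686 over 6 tests. With 3 against 4 arrays the smallest p of the exact permutation test is 0.0571. After adjustment none of the 6 could pass the threshold, also with 4 against 4 arrays. Those p-values therefore do not show that these probe pairs changed alike. The Fcgr1a ratio did not overlap between old_AL, at 3.20 to 3.29, and young_AL, at 3.33 to 3.38. That difference was -0.09, and its unadjusted p by the exact permutation test was the smallest possible, 0.0571. On old_AL 1 the Fcgr1a ratio was 4.69, and with it included that difference was 0.27 and the one of old_CR from old_AL -0.32. A ratio within an array shows unequal change of the probes and not which of them followed the gene. The array files hold no probe sequences, so the transcript and any cross-hybridisation of each Fcgr2b probe were not tested.

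**Figure D2:**
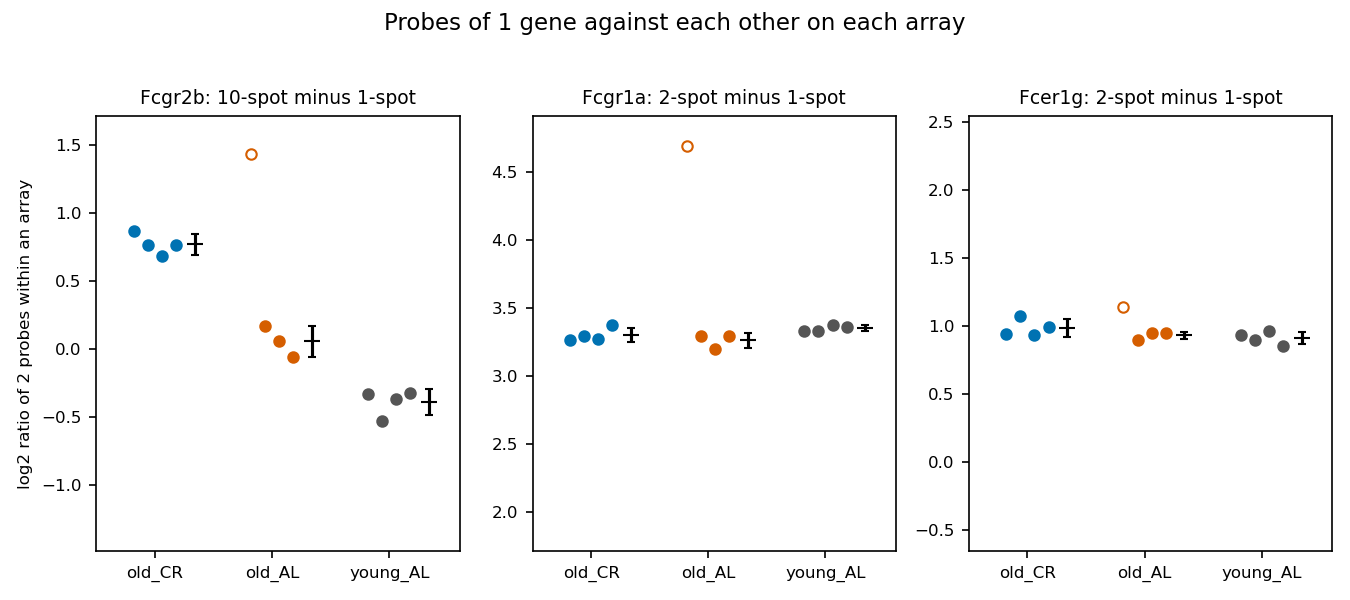
Log2 ratio of the 2 probes of Fcgr2b, Fcgr1a and Fcer1g within each array (vertical axis spans the same number of log2 units in each panel), with old_CR, old_AL and young_AL from left to right. Filled points are arrays, the open point is old_AL 1, and bars are mean and SD without it; the Fcgr2b ratio averaged 0.77 in old_CR, 0.06 in old_AL and -0.39 in young_AL, while the ratios of the other pairs differed between groups by -0.09 to 0.07 without old_AL 1, which lies apart in the Fcgr1a panel at 4.69.

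Fcer1g encodes the gamma chain through which Fcgr1a, Fcgr3a and the IgE receptor signal. Its 2-spot probe A_44_P1053404 read 127%, 111%, 89.2% and 91.1% in old_CR, 170.0%, 155% and 115% in old_AL, and 104%, 60.3%, 86.6% and 105% in young_AL. Each old_AL value was above each young_AL value, and the old_CR values overlapped both other groups. The difference of old_AL from young_AL was 0.73 ± 0.22, with an adjusted p of 0.100 by limma. For old_CR against old_AL it was -0.48 ± 0.22, with an adjusted p of 0.201 by limma, and for old_CR against young_AL 0.25 ± 0.20.

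The 1-spot probe of Fcer1g, A_64_P016357, read 66.3%, 52.9%, 46.8% and 45.8% in old_CR, 91.2%, 80.3% and 59.8% in old_AL, and 54.7%, 32.4%, 44.4% and 57.8% in young_AL. It followed the 2-spot probe, with differences of 0.72 ± 0.22, -0.54 ± 0.22 and 0.18 ± 0.21 in the same order of comparisons and adjusted p of 0.111, 0.174 and 0.704 by limma. With old_AL 1, at 84.6% and 38.4% on these probes, the differences of old_AL from young_AL were 0.54 ± 0.25 and 0.47 ± 0.28, and both differences of old_CR from old_AL were -0.29.

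Tyrobp, the DAP12 adapter, had a profile close to that of Fcer1g. Its probe A_42_P807697 read 272%, 237%, 195% and 196% in old_CR, 409.6%, 318% and 266% in old_AL, and 201%, 143%, 178% and 213% in young_AL. Every old_AL array lay above every young_AL array, and the highest old_CR array overlapped the lowest old_AL array. Tyrobp rose by 0.84 ± 0.19 in old_AL against young_AL, with an adjusted p of 0.0499 by limma, and that call was lost without the filter on dim probes, at an adjusted p of 0.0610. In old_CR against old_AL the difference was -0.55 ± 0.19 with an adjusted p of 0.119 by limma, and in old_CR against young_AL it was 0.29 ± 0.17 with an adjusted p of 0.418. On all 12 arrays, with 219.6% on old_AL 1, the old_AL arrays still lay above all young_AL arrays, at 0.70 ± 0.20 with an adjusted p of 0.538 by limma, and the difference of old_CR from old_AL was -0.41 ± 0.20.

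Fcgrt, which carries IgG across cells and protects it from breakdown, was the member with no separation between groups. Its probe A_44_P996997 read 80.0%, 83.8%, 87.9% and 81.2% in old_CR, 97.8%, 82.9% and 69.2% in old_AL, and 74.1%, 56.8%, 70.3% and 80.3% in young_AL. The old_CR arrays were close together, and the old_AL arrays spread across the old_CR range and the upper part of the young_AL range. The lowest old_CR array, at 79.97%, lay just below the highest young_AL array, at 80.30%. The differences were 0.24 ± 0.13 for old_AL against young_AL (95% interval -0.06 to 0.54), 0.01 ± 0.13 for old_CR against old_AL (-0.29 to 0.31) and 0.25 ± 0.12 for old_CR against young_AL (-0.02 to 0.53), with adjusted p of 0.308, 0.966 and 0.318 by limma. With old_AL 1, which read 36.2%, the difference of old_AL from young_AL turned to -0.06 ± 0.26 and that of old_CR from old_AL was 0.31 ± 0.26.

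**Figure D3:**
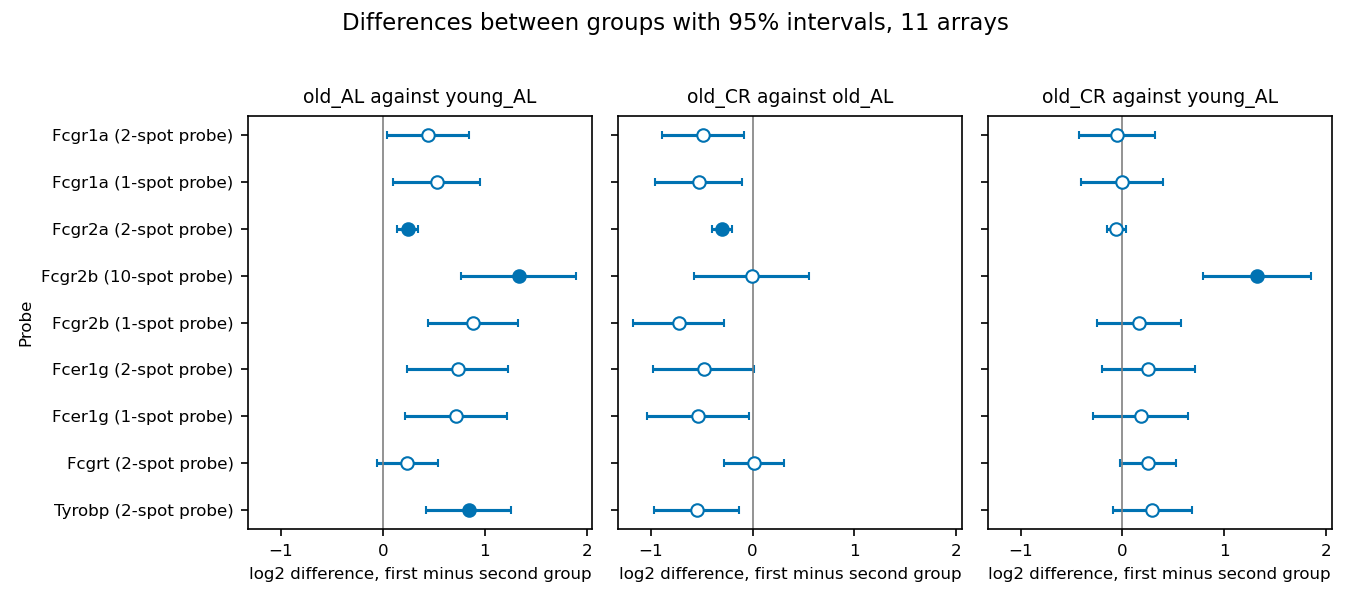
Log2 difference of each of the 9 probes between groups on 11 arrays (horizontal axis, first group minus second), 1 panel a comparison, with the 95% interval of the limma fit as a bar. Filled points passed an adjusted p of 0.05: 3 probes in old_AL against young_AL, 1 in old_CR against old_AL and 1 in old_CR against young_AL.

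The calls rested on few arrays. On all 12 arrays none of the 9 probes passed in any comparison by limma, where 0.0169%, 0.00421% and 0.0169% of all probes did in the order above. An unadjusted p under 0.05 was reached by 3, 1 and 1 of the 9 on 12 arrays, where 6.59%, 5.81% and 2.7% of all probes did, and by 8, 6 and 1 on 11 arrays, where 22.8%, 26% and 18.1% did. With 12 arrays the groups did not overlap upward in old_AL against young_AL for 2 of the 9 probes (4.17% of all probes), downward in old_CR against old_AL for 1 (4.43%) and upward in old_CR against young_AL for 1 (5.39%). When each of the 11 arrays was left out in turn, the Tyrobp call was lost every time, with an adjusted p of 0.0514 to 0.121 by limma. The Fcgr2a call of old_AL against young_AL was kept only without old_CR 1, 2 or 3, and was otherwise lost with an adjusted p of 0.0505 to 0.0871. The Fcgr2a call of old_CR against old_AL was lost without young_AL 3, old_AL 4 or any of the 4 old_CR arrays, with an adjusted p of 0.0503 to 0.105. The Fcgr2b call of old_AL against young_AL was lost without young_AL 2 or 3, old_AL 2 or 3, or old_CR 2 or 4, with an adjusted p of 0.0548 to 0.0972 by limma. That of old_CR against young_AL was lost without young_AL 1, 2 or 3 or old_CR 1, 2 or 4, with an adjusted p of 0.0549 to 0.0873. The direction of each of these 5 called differences held in every such fit. Of all probes, these fits called 0.136% to 1.69% in old_AL against young_AL, against 2.52% on 11 arrays. They called 0.00425% to 4.22% in old_CR against old_AL, against 0.91%, and 0.213% to 4.01% in old_CR against young_AL, against 2.34%.

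The split of calls over the whole array also depended on scaling. Of the 595 probes called in old_AL against young_AL, 62.5% were higher, against 22.1% with quantile normalization, 9.06% with centring on the median and 87.2% with normexp background correction. Of the 215 called in old_CR against old_AL, 23.3% were higher, against 70.8%, 91.9% and 9.80% under those alternatives. The difference of the 10-spot Fcgr2b probe and of Tyrobp between old_AL and young_AL kept its sign and stayed past the threshold in all 3 of these. In that comparison 4.72%, 15% and 18.4% of all probes were called with quantile normalization, median centring and normexp.

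Within groups the members tended to be high or low on the same arrays. The array young_AL 2 was the lowest of its group on all 9 probes, old_AL 4 was the lowest of the 3 old_AL arrays on 8, and old_CR 3 and 4 were below old_CR 1 and 2 on 8. As a description over 11 arrays that share the groups and the scaling, Pearson's r between the brightest probes was 0.97 for Fcer1g with Tyrobp, 0.88 for Fcer1g with Fcgr1a and 0.79 for Fcer1g with Fcgr2b. It was lowest for Fcgrt with Fcgr2a, at 0.20, and for Fcgr2b with Fcgr2a, at 0.35.

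The receptors and Tyrobp were also set against Fcer1g within each array, with exact permutation tests adjusted over 15 tests. With 3 against 4 arrays the smallest p of this test is 0.0571. After adjustment none of the 15 could reach 0.05, also with 4 against 4 arrays. That none passed therefore does not show that the ratios were equal. The log2 ratio of the 10-spot Fcgr2b probe to Fcer1g averaged -2.17 ± 0.11 in old_CR (SD, n = 4), -2.64 ± 0.10 in old_AL (n = 3) and -3.24 ± 0.07 in young_AL (n = 4), and its differences of 0.60, 0.47 and 1.07 each had an adjusted p of 0.143 by the exact permutation test. The log2 ratio of Fcgrt to Fcer1g differed by -0.49 in old_AL against young_AL and by 0.49 in old_CR against old_AL, each with an adjusted exact permutation p of 0.143. Tyrobp kept nearly the same ratio to Fcer1g, with differences of 0.11, -0.07 and 0.04.

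The arrays' most similar profiles, by Pearson's r over the same 11 arrays among 12347 genes, were named as a description. For Fcer1g they were Ptprc (0.983), the leukocyte phosphatase CD45, C1qa (0.974), a chain of complement C1q, and Tbxas1 (0.973), thromboxane synthase. For Tyrobp they were Pltp (0.976), Zfat (0.974) and Rac2 (0.973), a GTPase of blood cells. For Fcgr1a they were Plscr1 (0.950), Ncf4 (0.949), a subunit of the phagocyte oxidase, and Tifab (0.945). For the 10-spot Fcgr2b probe they were Padi4 (0.955), an enzyme that turns arginine in proteins to citrulline, Gpnmb (0.953), a glycoprotein of macrophages, and Tifa (0.946). For Fcgr2a they were Nr1h3 (0.960), the liver X receptor alpha, Pkdcc (0.955) and Abi3 (0.953). For Fcgrt they were Hsf4 (0.937), Defa11 (0.935) and Pcsk1n (0.918).

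For the gene lists below, 1.57% of all probes were called higher in old_AL against young_AL, 0.212% in old_CR against old_AL and 0.724% in old_CR against young_AL. Called lower were 0.944%, 0.698% and 1.62% in that order. The median differences over all probes were 0.04, -0.06 and -0.02. Of 16 other genes of Fc receptors and their relatives, 12 had a probe and 6 were measured. In old_AL against young_AL 1 of these 6 rose and none fell, with a median difference of 0.52. The gene that rose was Fcrl2, a receptor-like relative of the Fc receptors, which read 21.4%, 18.7%, 18.1% and 14.8% in old_CR, 19.4%, 47.5% and 37.6% in old_AL, and 15.7%, 8.01%, 12.1% and 13.7% in young_AL. Its difference of old_AL from young_AL was 1.44 ± 0.31 with an adjusted p of 0.0479 by limma, and that of old_CR from old_AL was -0.85 ± 0.31 with an adjusted p of 0.138. On old_AL 1, which was left out, Fcrl2 read 11.6%, inside the young_AL range.

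Fcgr3a, the activating low-affinity receptor of NK cells and macrophages, read 8.03%, 6.19%, 3.78% and 6.08% in old_CR, 9.45%, 8.33% and 7.88% in old_AL, and 7.32%, 2.44%, 3.45% and 5.01% in young_AL. On the 11 arrays all old_AL values lay above all young_AL values, as held for 11.8% of all probes. The Fcgr3a difference was 1.03 ± 0.36 and the adjusted p was 0.140 by limma. On old_AL 1 Fcgr3a read 3.94%, inside the young_AL range. Trim21, the antibody receptor inside cells, differed by 0.54 ± 0.23 in old_AL against young_AL and by -0.63 ± 0.23 in old_CR against old_AL, with adjusted p of 0.209 and 0.142 by limma. Fcrla and Fcrlb, receptor-like relatives, differed by 0.50 ± 0.20 and -0.11 ± 0.26 in old_AL against young_AL and by -0.14 ± 0.20 and -0.43 ± 0.26 in old_CR against old_AL, and neither passed. Fcmr, the receptor for IgM, differed by 0.02 ± 0.19 in old_AL against young_AL and 0.07 ± 0.19 in old_CR against old_AL. The IgE receptor chains Fcer1a and Ms4a2, the low-affinity IgE receptor Fcer2, and Pigr, Fcrl6 and Fcar were too dim to test. Of the partners of the neonatal Fc receptor, B2m differed by 0.18 ± 0.05 in old_AL against young_AL and by -0.21 ± 0.05 in old_CR against old_AL, with adjusted p of 0.0777 and 0.0626 by limma. On old_AL 1 B2m read 9035%, against 1660% to 2111% on the other arrays.

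The partner list held receptors and adapters chosen around Fcer1g and Tyrobp, and not all of them are proven partners of these chains. Of its 17 measured genes, 1 rose in old_AL against young_AL and 16 had a positive difference, with a median of 0.60. The gene that rose was an adapter and not a receptor, Hcst, which encodes DAP10 and works beside DAP12, at 1.38 ± 0.30 with an adjusted p of 0.0467 by limma. Trem2, a lipid receptor of macrophages, differed by 1.08 ± 0.25 with an adjusted p of 0.0548, and Clec4a2, a C-type lectin, by 1.04 ± 0.27 with an adjusted p of 0.0689. In old_CR against old_AL none of the 17 passed and all 17 differences were negative, with a median of -0.44. Most probes of the array were also lower there, with a median of -0.06 and an upper quartile of 0.04. The list shares genes with the macrophage and NK cell markers. Cd300c2 had the smallest p there, at -0.67 ± 0.20 with an adjusted p of 0.0939 by limma. Against young_AL none of the 17 passed in old_CR, with a median of 0.27.

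Of 31 measured genes of activating signalling downstream of these receptors, 3 rose in old_AL against young_AL and none fell, with a median of 0.38. They were Plcg2, a phospholipase that Syk activates, at 0.96 ± 0.18 with an adjusted p of 0.0329, Blnk, a scaffold protein of that step, at 0.50 ± 0.10 with an adjusted p of 0.0382, and Card9, an adapter towards NF-kappa B, at 0.42 ± 0.07 with an adjusted p of 0.0300 by limma. In old_CR against old_AL none of the 31 passed, with a median of -0.25, and Syk differed by -0.90 ± 0.21 with an adjusted p of 0.0666. In old_CR against young_AL 2 of the 31 rose, among them Blnk by 0.48 ± 0.09 with an adjusted p of 0.0324 by limma, and the median of the list was 0.04.

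Of 16 measured genes of inhibitory signalling, 2 rose in old_AL against young_AL, with a median of 0.40. Cd300a, an inhibitory receptor of myeloid cells, rose by 0.84 ± 0.10 with an adjusted p of 0.0112, and Inpp5d, the phosphatase that Fcgr2b recruits, by 0.23 ± 0.04 with an adjusted p of 0.0284 by limma. In old_CR against old_AL 2 fell, with a median of -0.24. Cd300a fell by 0.63 ± 0.10 with an adjusted p of 0.0363, and Cd22, an inhibitory receptor of B cells, by 0.60 ± 0.11 with an adjusted p of 0.0459 by limma, although the Cd22 probe was well above background on 2 of 4 old_CR and 1 of 3 old_AL arrays. Inpp5d differed there by -0.19 ± 0.04 with an adjusted p of 0.0537. None passed in old_CR against young_AL, where the median was 0.02. On all 12 arrays no gene of these lists passed in any comparison by limma, and the medians of the other Fc receptor genes, the partner list, activating signalling and inhibitory signalling were 0.28, 0.30, 0.12 and 0.08 in old_AL against young_AL. In old_CR against old_AL they were -0.22, -0.12, 0.0011 and -0.0367, so that the median of activating signalling turned.

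**Figure D4:**
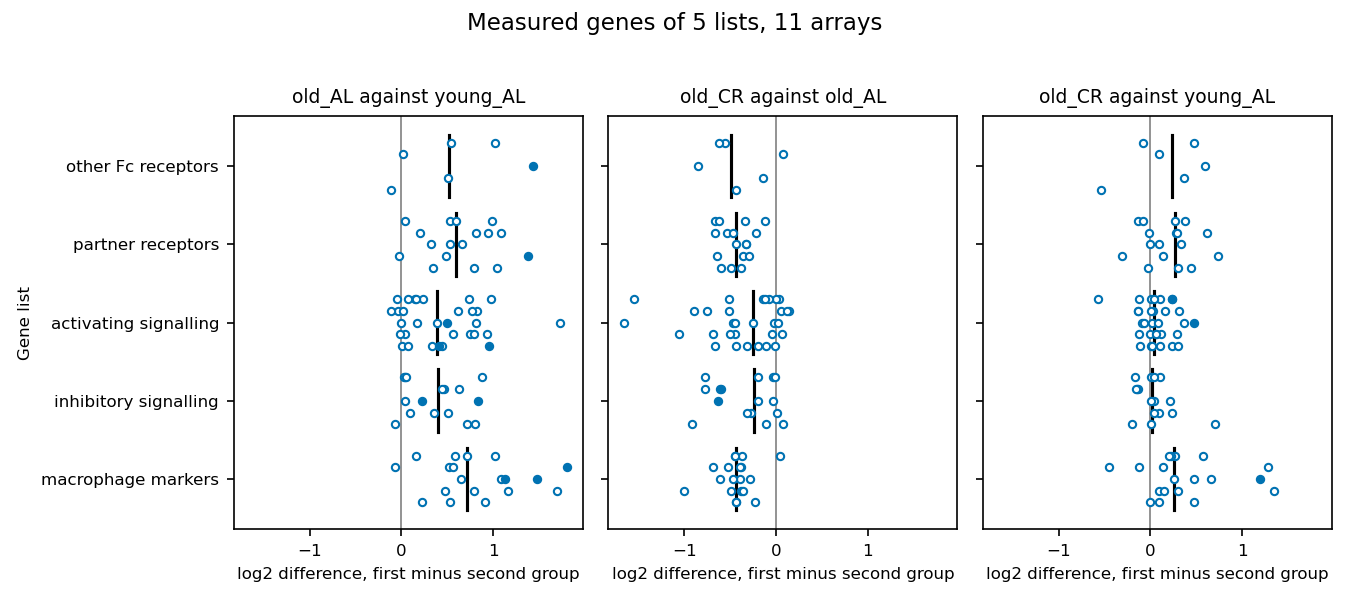
Log2 difference of each measured gene of 5 lists on 11 arrays (horizontal axis, first group minus second), 1 panel a comparison, with the list's median as a black line. Filled points passed an adjusted p of 0.05 by limma; in old_AL against young_AL the medians run from 0.38 for activating signalling to 0.71 for macrophage markers, and in old_CR against old_AL from -0.49 to -0.24.

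Markers of several cell types differed between the groups along with the members, and their part in the results was not tested. Of 20 macrophage markers 18 were well above background on all 11 arrays and Vsig4 on none. Their summed level ran from 2720% to 4198% in old_CR, 3504% to 4791% in old_AL and 2436% to 3786% in young_AL, so the groups overlapped, and 58.4% of the sum came from Lyz2, while on old_AL 1 the sum was 14319%. Of the 19 measured, 3 rose in old_AL against young_AL, with a median of 0.71: Cd163 by 1.81, Gpnmb by 1.48 and the mannose receptor Mrc1 by 1.13, with adjusted p of 0.0361, 0.0148 and 0.0399 by limma. None passed in old_CR against old_AL, with a median of -0.44, and Gpnmb was higher by 1.19 in old_CR against young_AL.

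Neutrophil markers summed to 143% to 203% in old_CR, 105% to 318% in old_AL and 44.3% to 111% in young_AL, with 6 of 11 well above background on all 11 arrays and Ltf on none. Of the 7 measured, Camp and Ngp rose in old_AL against young_AL, by 2.28 and 2.26, and Camp was also higher in old_CR against young_AL, by 1.69. NK cell markers summed to 3179% to 3628% in old_CR, 4096% to 4691% in old_AL and 3588% to 3997% in young_AL, with 97.7% of the sum from Tbx21 and Ncr3 well above background on no array. Mast cell markers summed to 29.5% to 32.6% in old_CR, 32.1% to 43.7% in old_AL and 29.1% to 31.2% in young_AL, with 59.0% of the sum from Kit and with Mcpt1 and Fcer1a well above background on no array. B and plasma cell markers summed to 26.9% to 36.4% in old_CR, 34.5% to 49.9% in old_AL and 32.2% to 36.0% in young_AL, with 82.7% of the sum from Pax5. None of the measured NK or mast cell markers passed in any comparison. T cell markers summed to 52.3% to 83.0% in old_CR, 84.4% to 87.0% in old_AL and 47.1% to 54.2% in young_AL. Adipocyte markers summed to 101% to 113% in old_CR, 135% to 243% in old_AL and 44.6% to 67.5% in young_AL, with 87.6% of the sum from Cfd. The old_AL ranges leave out old_AL 1. Its sums were 37.2% for T cell, 54.1% for adipocyte, 79.3% for neutrophil and 22.7% for B and plasma cell markers, each below the tested old_AL arrays. Its NK cell, mast cell, dendritic cell and erythroid sums lay within the old_AL ranges. Its endothelial sum was 2188%, against 403% to 482% on the tested old_AL arrays. Its sensory neuron sum was 83326%, against 67202% to 70695%, and its satellite glia and Schwann cell sum 32286%, against 24733% to 27088%. Of the measured markers, 1 of 9 for T cells (Cd8a) and 1 of 4 for adipocytes (Cfd) rose in old_AL against young_AL, by 2.21 and 1.99. In old_CR against young_AL 2 of the 4 adipocyte markers rose, Cfd by 1.09 and Adipoq by 3.62.

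Dendritic cell markers summed to 230.0% to 451% in old_CR, 331% to 611% in old_AL and 158% to 343% in young_AL, and none of the 6 measured passed. Of this sum 87.0% came from Cd74. Erythroid and blood markers summed to 7232% to 7601% in old_CR, 8351% to 12092% in old_AL and 6926% to 10156% in young_AL, with 97.0% of the sum from Hbb. Of the 7 measured, Klf1, a transcription factor of red cell precursors, rose by 0.86 in old_AL against young_AL. Median differences of old_AL from young_AL were 1.46 for NK cell, 1.38 for neutrophil, 1.28 for T cell, 1.69 for adipocyte, 0.87 for erythroid, 0.62 for mast cell, 0.52 for dendritic cell, 0.46 for B and plasma cell and 0.23 for endothelial markers. Those of old_CR from old_AL were -1.37 for NK cell, -0.66 for erythroid, -0.61 for T cell, -0.59 for neutrophil and -0.44 for B and plasma cell markers. They were -0.33 for dendritic cell, -0.31 for endothelial, -0.24 for adipocyte and -0.12 for mast cell markers. Of the 12 markers of satellite glia and Schwann cells, 4 fell in old_CR against young_AL (Fabp7, Slc1a3, Pmp22 and Sox10, by 0.30 to 0.60), 1 fell in old_CR against old_AL (Slc1a3) and none passed in old_AL against young_AL. Of the 14 neuron markers, the neurofilaments Nefl and Nefh fell in both old groups against young_AL, by 0.21 to 0.31, and Isl1 rose by 0.31 in old_CR against old_AL.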

How the data were processed

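The 12 one-colour arrays each held 58717 gene probe spots beside 4259 control spots. As deposited, the values are intensities, linear in scale, from Agilent Feature Extraction 10.7, per the submitters' processing notes. Per the file headers, the scanner software had subtracted background to give the processed signal intensity. The deposited table of the whole series held the same intensities, and no scaling between arrays was found in them.

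From these, log2 of the processed signal minus each array's 75th percentile was computed. Outlier spots were set to missing, saturated spots kept and replicate spots averaged, and a probe was tested if well above background (at least 0.5 of its spots) on 4 or more arrays. Probes were fitted singly with limma 3.58.1 in R 4.3.3, all 3 groups sharing 1 spread, and the script was tested on simulated data. Accessions of 17998 probes matched symbols of 15154 genes in a RefSeq table of GRCr8, used for names and promoter windows. A gene of a list is its brightest probe.

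The members, the gene lists and the choice of 11 arrays were made with earlier results of these data known. From each list, up to 3 genes with the smallest p in the age and the diet comparison were named, and any other Fc receptor gene. The cell type markers beyond that rule were named after their values were seen. The result of 1 listed gene is not reported here. The labels do not say how rats were paired, and arrays with the same replicate number did not deviate together (correlations of -0.09 to 0.08), so the number was not used as a pairing. The design text gives 4 rats a group. Alternatives were all 12 arrays, 2 other scalings, normexp background correction with an offset of 50, 2 filters, 2 probe summaries, the series table, fits of the 2 groups alone, an intensity trend, array weights, a replicate block and each array left out. The number of arrays limits the precision.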

Additional observations from a re-analysis of the deposited data

Results flagged for a closer look

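In 5 of 27 sets of 4 arrays (9 probes in 3 groups), 1 array's log2 level lay far from the other 3 for the group's range, which chance gives in about 1 of 20 sets. In old_AL, 4 of these sets concerned old_AL 1, the array left out of the tests. There the 2-spot Fcgr1a probe was at -0.12, the 1-spot Fcgr1a probe at -4.81 and the 1-spot Fcgr2b probe at -5.02, each below the other old_AL arrays, and Fcgr2a was at 2.11, above them. In young_AL, the array young_AL 2 was at 1.58 for Fcgr2a, below the other 3 arrays at 1.68 or more.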

How the results depend on the processing

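The 3, 1 and 1 member probes called on 11 arrays (old_AL against young_AL, old_CR against old_AL, old_CR against young_AL) became 0, 0 and 0 on all 12 arrays and with a replicate block, 0 in each comparison of old_AL with only its 2 groups fitted, 6 and 2 in those comparisons after normexp, and 6 and 3 with array weights. Of all probes, 2.52%, 0.91% and 2.34% were called on 11 arrays. The shares were 0.0169%, 0.00421% and 0.0169% on 12 arrays and 0.0974%, 0.00423% and 0.0847% with the block. In the comparisons of old_AL, fits of 2 groups called 0.11% and 0% of all probes, normexp 18.4% and 23%, and array weights 6.35% and 9.6%. Median centring left 0 for old_CR against old_AL, where 13.3% of all probes were called. Averaging a gene's probes left 0 for old_CR against young_AL, where 2.1% of the averages were called. Leaving out 1 array gave 0 to 2, 0 to 1 and 0 to 1, beside 0.136% to 1.69%, 0.00425% to 4.22% and 0.213% to 4.01% of all probes. List genes called numbered 17, 4 and 12 of 173. They were 0, 0 and 0 on 12 arrays, 1, 0 and 0 with the block, 31, 16 and 6 after median centring, 39, 32 and 22 with array weights, 75 and 53 after normexp, 28 and 13 with an intensity trend, 2 and 0 with only 2 groups fitted, 2 for old_CR against old_AL after quantile normalization, 4 for old_CR against young_AL without a filter, and 3 to 15, 0 to 12 and 2 to 14 with 1 array left out. Of all probes, 15%, 13.3% and 0.893% were called after median centring and 6.35%, 9.6% and 8.86% with array weights. An intensity trend called 4.76% and 3.55% of all probes. Quantile normalization called 1.55% in old_CR against old_AL, and the fit without a filter 0.757% in old_CR against young_AL. The shares for the other settings are given above.

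Signs turned for differences near 0. Fcgrt was at -0.0561 (12 arrays, old_AL against young_AL) and -0.0344 (array weights, old_CR against old_AL, where single arrays gave -0.11 to 0.14). The 10-spot Fcgr2b probe in old_CR against old_AL was at 0.36 (12 arrays), 0.0763 (quantile) and 0.16 (median centring), and at -0.16 to 0.10 with 1 array left out. Fcgr1a in old_CR against young_AL was at 0.0065 (quantile) and 0.0077 (median centring) for the 1-spot probe, and at -0.15 to 0.11 and -0.20 to 0.0566 for both probes with 1 array left out. Relative to Fcer1g, Fcgr2a was at -0.0686 (12 arrays) and Fcgr1a at 0.00015 (quantile), 0.0311 (normexp) and -0.13 to 0.14 in old_CR against old_AL, and Fcgrt at 0.0161 (normexp) and -0.10 to 0.12 in old_CR against young_AL. The differences of the Fcgr2b probe ratio, given without a test, were 0.79 and 1.16 on 12 arrays for the age comparison and for old_CR against young_AL. With 1 array left out they ranged from 0.39 to 0.50, 0.66 to 0.77 and 1.11 to 1.19. The cause of the other changes was not tested.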

Other observations

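On the array old_AL 4 alone among the 12, Fcer2, the low-affinity IgE receptor of B cells, and Ms4a2, the beta chain of the mast cell IgE receptor, were well above background, at 2.20% and 1.22% of the array's 75th percentile, against at most 0.291% and 0.287% on the other 11. Fcrl6 was at 4.80% there, against at most 1.09% elsewhere. Pigr and Fcar, not well above background there, were at 0.762% and 0.823%, against at most 0.280% and 0.413% on the other arrays with a value. The high 25th percentile of signal on this array, 79.7, is given above, and its part in these values was not tested. On most Fc receptor probes described above the same array was the lowest of the 3 old_AL arrays that were tested.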
